A study of Drosophila melanogaster with 6 samples.

Results

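Cell cycle and DNA replication genes were read out in larval cuticles, that is, body walls with epidermis and skeletal muscle, of control and tumour-bearing Drosophila larvae. The genes were chosen by name: 45 names of cyclins, kinases, E2F and RB proteins, replication factors and mitotic machinery were looked up by symbol. Of these, 42 genes were found among the 11621 genes of the table, and all 42 had enough counts to be tested. PCNA is carried by the table under its symbol mus209, BubR1 was not analysed here, and fzr appears under its older symbol rap, so that its values are given beside the others but outside every count. By role, 20 genes act in S-phase entry, origin licensing or DNA synthesis (the replication genes), 15 act in mitosis (the mitotic genes) and 7 are G1 or E2F and RB regulators.

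The control larvae were w1118 at 7 days after egg laying, with 3 samples. The tumour-bearing larvae, at 10 days and also with 3 samples, carried y, w and ey-flp, then act5C>y+>GFP over UAS-RasV12, and FRT82B with tub-gal80 over FRT82B with scrib1. In this MARCM genotype a recombinase driven in the eye disc makes clones that lose the polarity gene scribbled and express oncogenic RasV12, and the labels say that internal organs were removed to leave the body wall. Age and genetic background changed together with the tumour, each sample carries its own lane label, and a rearing temperature is stated for the controls only, while the study's methods mention a temperature shift for this tumour genotype, so none of these can be told apart from the tumour. In this bulk RNA, fewer cells of a type and less RNA per cell cannot be told apart either.

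Most larval epidermal and muscle nuclei are polyploid. Epidermal cells reach this state by endocycling, in which S phases follow each other without mitosis, driven by pulses of Cyclin E with its kinase Cdk2 and by Fzr, the activator that lets the anaphase-promoting complex destroy mitotic cyclins between S phases. Diploid cells of the larva, such as imaginal disc cells, adult muscle precursors and haemocytes, divide by mitosis and need String (Cdc25) and the mitotic cyclins as well. Abdominal histoblasts are also diploid. E2f1 with its partner Dp switches on many S-phase genes, and the RB proteins hold it back.

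Depth was 62617114 to 84149121 counts per sample. The 20 most abundant genes took 25.9% to 35.9% of the counts in the controls and 10.8% to 11.6% in the tumour-bearing cuticles, and the libraries were therefore scaled by TMM, which corrects for such a difference in composition. All levels below are normalized counts, that is, counts over the TMM-scaled library size brought to a common mean size, and all log2 fold changes are tumour-bearing over control. Scaling by total counts alone moved the median of all genes from 0.01 to 0.94, so changes are also given relative to that median where it matters. A gene passed the test at an adjusted p under 0.05 in edgeR's quasi-likelihood test over all 10074 genes tested. No source states that replicates were grown as separate cultures, and the p-values then reflect only how far these samples differ, which may be technical.

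The library labelled control 3 stood apart from the other controls in the mitotic genes. All 15 were higher in control 3 than in control 1 and control 2, by a median of 0.95 on the log2 scale over their mean, whereas 4 of the 20 replication genes were, with a median of -0.20, and the median over all genes tested was -0.01. TMM scaling itself keeps that last median close to 0. Control 3 also differed in markers of muscle, epidermis, and imaginal discs with histoblasts, by medians of -1.53, -0.56 and 1.03. Results on mitotic genes are therefore given with and without control 3.

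**Figure D1:**
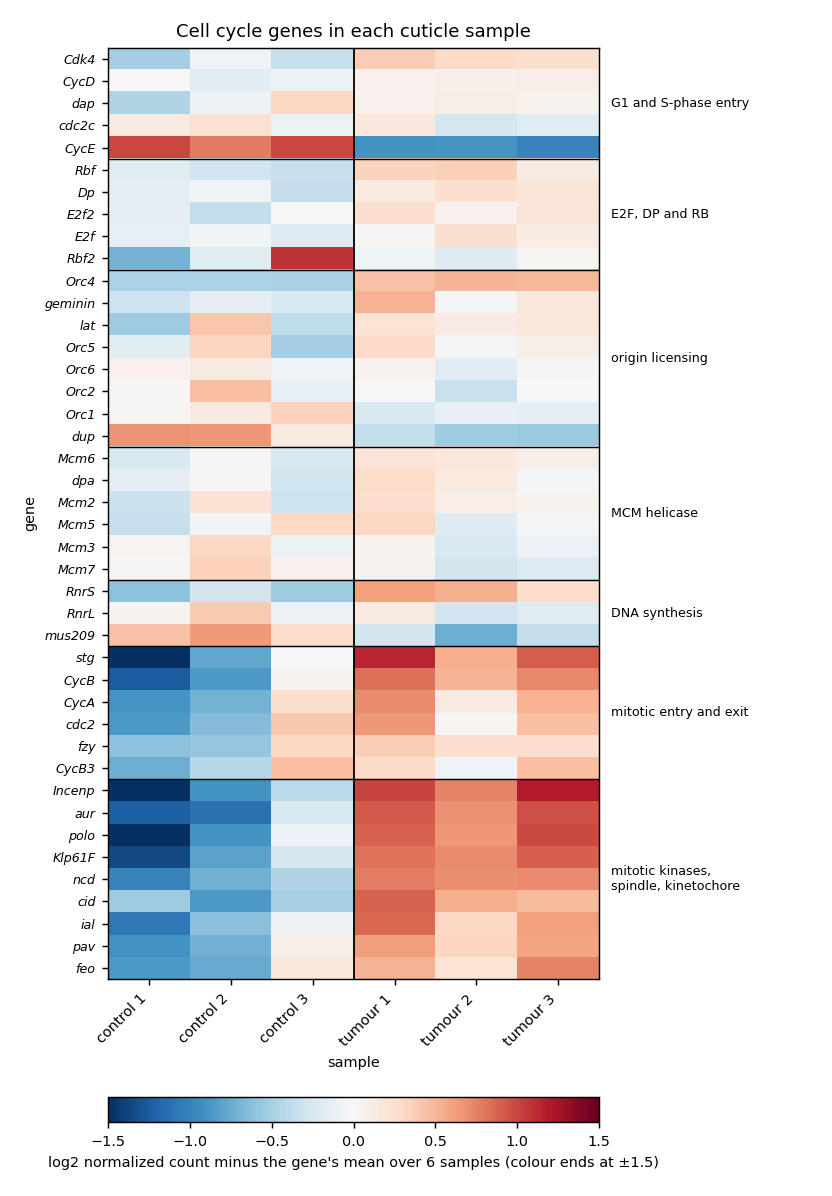
Each row is a gene and each column a sample, and colour gives the log2 normalized count minus the gene's mean over the 6 samples. The 15 mitotic genes at the bottom are lower in control 1 and control 2 than in the tumour-bearing samples, while the 20 replication genes show no common direction. For most mitotic genes control 3 lies between them, but it is at the tumour-bearing level for CycB3, fzy and cdc2, inside the tumour-bearing range for CycA and beside control 1 for cid.

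Most of the genes that rose act in mitosis, and those that fell act in replication. Of the 42, 15 were higher in tumour-bearing cuticles, 3 were lower and 24 did not pass, against 23.8% of all genes tested that were higher and 23% that were lower (46.8% called in either direction). Of the 15 mitotic genes, 10 rose and 5 did not pass, with a median log2 fold change of 1.26 (all 15 were higher without control 3, with a median of 1.43, and with total counts, but only 4 without control 2, 4 without tumour 1 and 5 without tumour 3). Of all genes tested, 25.1% were higher without control 3, and 21.4%, 17.8% and 18.5% without control 2, tumour 1 and tumour 3. Of the 20 replication genes, 2 rose, 3 fell and 15 did not pass, with a median of -0.02, close to the 0.01 of all genes. With total counts 16 of the 20 were higher and 1 lower, with a median of 0.91 beside 0.94, where 61.4% of all genes tested were higher and 6.9% lower. With TMM, in 4 of the 20 every tumour-bearing sample lay above every control and in 4 below, against 31.9% and 29.7% of all genes tested. Of the 7 G1, E2F and RB regulators, 3 rose and 4 did not pass, with a median of 0.34.

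A ratio of raw counts within a library needs no scaling between libraries. Per 100 raw counts of the 20 replication genes, the 15 mitotic genes had 24.1, 27.4 and 52.0 counts in the controls. They had 83.4, 78.0 and 95.6 in the tumour-bearing cuticles. The groups did not overlap, and control 3 lay between them. Summed as CPM (counts per 1000000 counts of TMM-scaled library), the replication genes took 276, 318 and 281 in the controls and 307, 268 and 265 in the tumour-bearing samples, which overlapped. The mitotic genes took 66.5, 87.0 and 146 CPM in the controls and 256, 209 and 253 in the tumour-bearing samples.

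**Figure D2:**
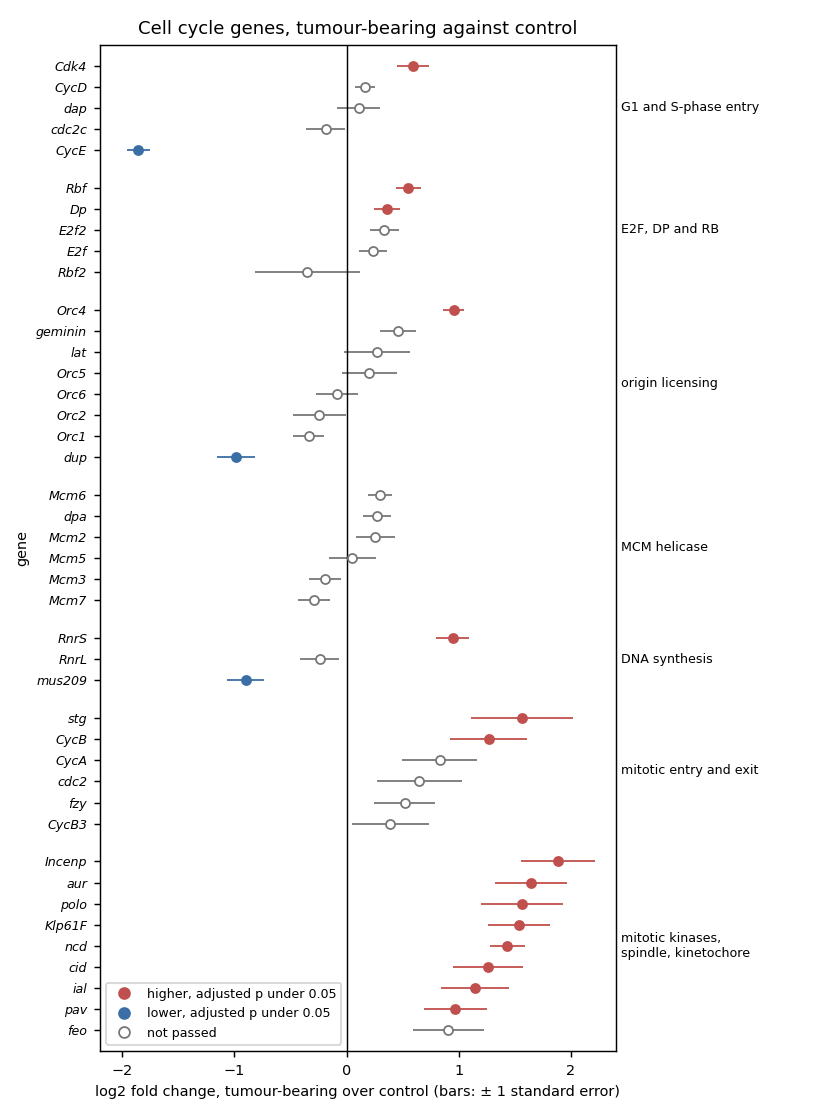
Points are log2 fold changes of tumour-bearing over control with bars of 1 standard error, grouped by role, and filled points passed the test (red higher, blue lower). The mitotic genes run from 0.39 to 1.89, whereas the replication genes lie on both sides of 0, from -1.86 for CycE to 0.96 for Orc4.

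Among the genes of S-phase entry, CycE fell the furthest. CycE, the cyclin that with Cdk2 starts S phase (chromosome arm 2L, 15727581 to 15748150, minus strand, BDGP6), had 2860, 2441 and 2862 normalized counts in the controls. It had 767, 775 and 714 in the tumour-bearing samples, far below every control. The log2 fold change was -1.86 (standard error 0.11, adjusted p = 0.000397), a level 0.276 times that of the controls. It remained lower under every scaling, with a log2 fold change of -0.93 and an adjusted p of 0.00427 where libraries were scaled by total counts alone.

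Neither the kinase partner of CycE nor its inhibitor passed the test. The kinase cdc2c (Cdk2) had 471, 503 and 405 normalized counts in the controls and 479, 356 and 377 in the tumour-bearing samples, which overlapped (log2 fold change -0.19, 95% interval -0.61 to 0.24). Of its exon bases, 43.9% are shared with CG17267 on the other strand, and the library kit does not mark strand. The inhibitor of CycE-Cdk2, dap, had 1144, 1475 and 1940 in the controls and 1635, 1664 and 1614 in the tumour-bearing samples, inside the range of the controls (log2 fold change 0.11, 95% interval -0.37 to 0.58). Per 100 raw counts of the 6 MCM genes, CycE had 46.5, 32.1 and 43.7 counts in the controls and 9.59, 11.3 and 10.4 in the tumour-bearing cuticles.

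Of the G1 pair, Cdk4 rose and CycD did not pass. Cdk4, the kinase partner of CycD that promotes growth and G1 progression, had 812, 1122 and 915 normalized counts in the controls and 1511, 1418 and 1366 in the tumour-bearing samples, which did not overlap (log2 fold change 0.59, standard error 0.14, adjusted p = 0.0175). Without control 1, tumour 1 or tumour 2 Cdk4 missed the threshold, with adjusted p of 0.0511, 0.0611 and 0.0595. CycD had 2131, 1878 and 2009 against 2224, 2242 and 2264, a log2 fold change of 0.16 that did not pass (95% interval -0.05 to 0.38).

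Of the 5 E2F, DP and RB genes, Rbf and Dp rose and 3 did not pass. Rbf, the main RB protein of the fly and a repressor of E2F targets, had 3043, 2807 and 2697 normalized counts in the controls and 4346, 4419 and 3745 in the tumour-bearing samples. Its log2 fold change was 0.55 (standard error 0.11, adjusted p = 0.00963), and Rbf passed in each of the 6 fits that left out 1 sample. Dp, the partner that every fly E2F needs to bind DNA, had 6350, 6703 and 5404 against 7605, 8192 and 7872 (log2 fold change 0.36, standard error 0.12, adjusted p = 0.0484). Its call stood at the edge: leaving out any of the 6 samples took it over the threshold, with adjusted p from 0.0525 to 0.139.

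The activator E2f (E2f1) was the most abundant of the 42 genes per length. It had 2259 normalized counts per kilobase of exon in the controls and 2668 in the tumour-bearing samples. Its normalized counts were 14572, 15403 and 13752 in the controls and 15958, 18611 and 17062 with tumours. Its log2 fold change of 0.24 did not pass (95% interval -0.07 to 0.54, adjusted p = 0.160), although the groups did not overlap. The repressor E2f2 had 895, 763 and 987 against 1183, 1030 and 1131 (log2 fold change 0.34, adjusted p = 0.0746), with 19.9% of its exon bases shared with Mpp6 on the other strand. Rbf2, the other RB protein, was of the 42 genes the most raised in control 3 over the mean of control 1 and control 2. It had 147.6, 216 and 511 normalized counts in the controls and 231, 210 and 247 in the tumour-bearing cuticles. Without control 3 its log2 fold change turned from -0.35 to 0.32, neither of which passed.

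Origin licensing loads the MCM helicase onto origins through the origin recognition complex and Cdt1. Of its 8 genes, Orc4 rose, dup fell and 6 did not pass. Orc4, a subunit of the origin recognition complex, varied little within groups, with 472, 471 and 469 normalized counts in the controls and 890.5, 931 and 919 in the tumour-bearing cuticles. The log2 fold change was 0.96 (standard error 0.09, adjusted p = 0.00116). None of the other subunits passed: Orc1, Orc2, Orc5, Orc6 and lat (Orc3) had log2 fold changes of -0.34, -0.24, 0.20, -0.09 and 0.27. The counts of lat are identical to those of CG34315 in every sample, and all exon bases of lat lie in that gene, so they cannot be told apart.

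The loader dup fell, while its inhibitor geminin did not pass. dup (Cdt1, chromosome arm 2R), which brings the helicase to origins and is destroyed in S phase, had 1857, 1830 and 1276 normalized counts in the controls and 905, 805 and 793 in the tumour-bearing cuticles. The groups did not overlap, with control 3 the lowest control (log2 fold change -0.99, standard error 0.17, adjusted p = 0.00605). geminin, which binds Cdt1 and blocks a further round of licensing, had 956, 1077 and 1023 against 1703, 1160 and 1336, and its log2 fold change of 0.46 did not pass (95% interval 0.07 to 0.85, adjusted p = 0.0578). With libraries scaled by total counts, dup lost its call (log2 fold change -0.03, where the median of all genes was 0.94), and geminin was higher (log2 fold change 1.40, adjusted p = 0.00131).

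None of the 6 MCM helicase genes passed edgeR's test. Mcm2, Mcm3, dpa (Mcm4), Mcm5, Mcm6 and Mcm7 form the ring that unwinds DNA at the fork, and their log2 fold changes ran from -0.29 for Mcm7 to 0.30 for Mcm6. At an unadjusted p under 0.05 there was 1 of 6, Mcm6. DESeq2 called 0, where 26.6% of all genes tested were higher and 27.8% lower. Mcm6 had 1155, 1375 and 1150 normalized counts in the controls and 1565, 1515 and 1446 in the tumour-bearing samples (adjusted p = 0.0647), the only MCM gene whose groups did not overlap. Of their 95% intervals the widest, of Mcm5, ran from -0.46 to 0.56. Of the exon bases of Mcm7, 81.7% are shared with an antisense RNA, CR45871.

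Among the DNA synthesis genes, 1 rose, 1 fell and 1 did not pass. mus209 (PCNA, chromosome arm 2R), the sliding clamp of the DNA polymerases and a textbook E2F target, had 1927, 2217 and 1715 normalized counts in the controls and 1173, 856 and 1112 in the tumour-bearing cuticles. The groups did not overlap (log2 fold change -0.90, standard error 0.16, adjusted p = 0.00705), but with libraries scaled by total counts mus209 was no longer lower (0.06, against 0.94 for all genes). mus209 was the most abundant replication gene per length in the controls, at 1825 normalized counts per kilobase of exon, and fell to 978.

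Of the ribonucleotide reductase subunits, RnrS rose and RnrL did not pass. RnrS encodes the small subunit of the enzyme that makes deoxynucleotides, and had 1813, 2302 and 1919 normalized counts in the controls. It had 4237, 4055 and 3322 in the tumour-bearing samples, all above every control (log2 fold change 0.94, standard error 0.15, adjusted p = 0.00431). RnrL, the large subunit with which RnrS forms the active enzyme, had 2076, 2619 and 1884 against 2172, 1637 and 1762, which overlapped (log2 fold change -0.24, 95% interval -0.66 to 0.18). Per 100 raw RnrL counts, RnrS had 87.3, 87.9 and 102 counts in the controls and 195, 248 and 189 in the tumour-bearing samples, which did not overlap.

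**Figure D3:**
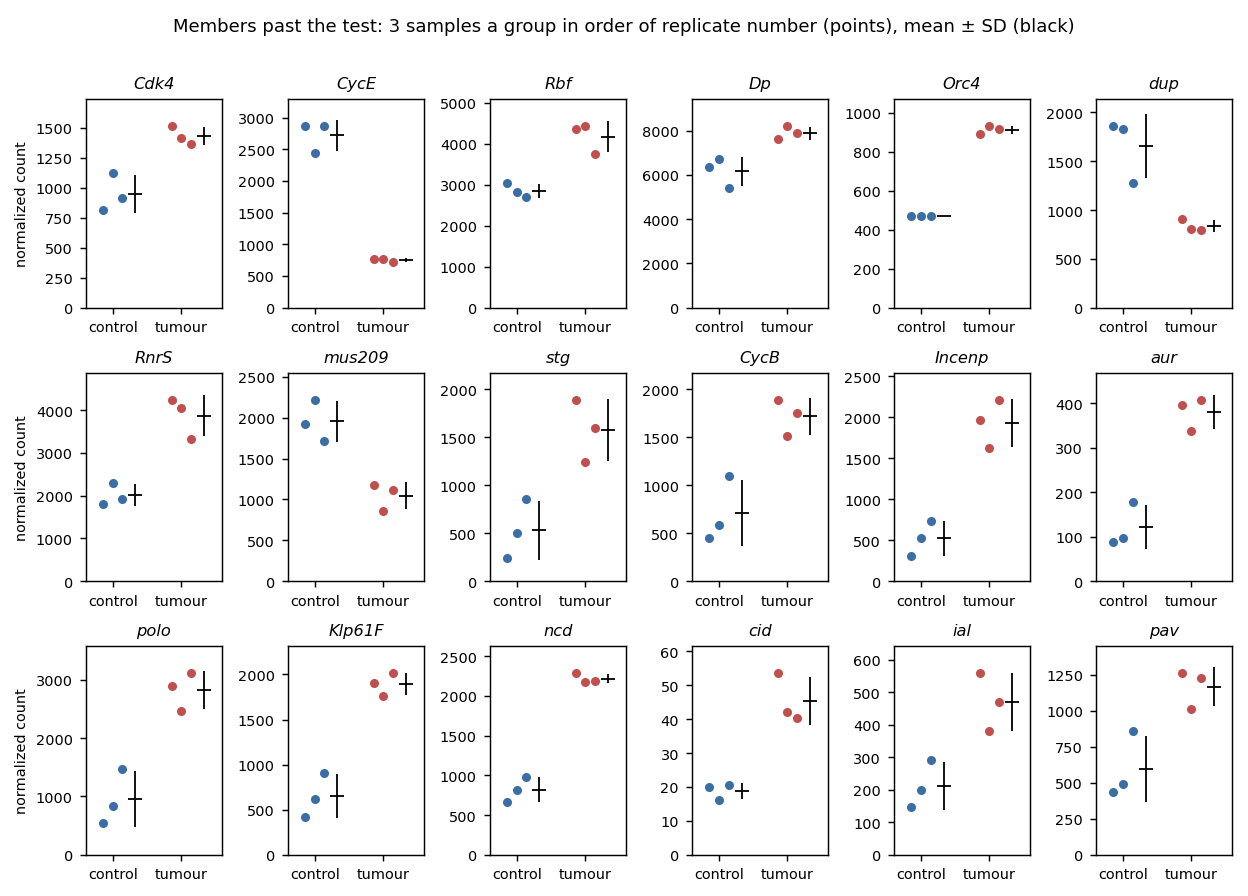
Each panel is 1 of the 18 genes that passed the test, with points for the 3 samples of each group in order of replicate number and the mean ± SD in black, on an axis of normalized counts from 0. With TMM scaling, in CycE, dup and mus209 the tumour-bearing samples lie below every control, and in the other 15 genes above every control, and control 3 is the highest control in each of the 10 mitotic panels.

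Of the 6 regulators that take cells into and out of mitosis, stg and CycB rose and 4 did not pass. stg (Cdc25, chromosome arm 3R, 29251826 to 29255800, minus strand), the phosphatase whose pulses trigger mitosis, had 243, 498 and 852 normalized counts in the controls and 1889, 1245 and 1600 in the tumour-bearing cuticles. The log2 fold change was 1.57 (standard error 0.45, adjusted p = 0.0335). CycB, the main mitotic cyclin, had 447, 587 and 1100 against 1888, 1509 and 1750 (log2 fold change 1.27, standard error 0.34, adjusted p = 0.0268). For both genes the groups did not overlap, with control 3 the highest control.

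CycA, CycB3, cdc2 (Cdk1) and fzy (Cdc20) did not pass with all 6 samples. CycA, which acts in both S phase and mitosis, had 569, 644 and 1237 normalized counts in the controls and 1716, 1139 and 1511 in the tumour-bearing cuticles, and control 3 lay inside the tumour-bearing range. cdc2, the kinase that drives mitosis, had 238, 276 and 575 against 679, 439 and 592, with control 3 again inside that range. fzy, which opens anaphase, had 421, 433 and 802 against 831, 772 and 772, and CycB3 had 195, 242 and 444.5 against 398, 317 and 443. Without control 3 all 4 passed, with log2 fold changes of 1.25 for CycA, 1.13 for cdc2, 0.87 for fzy and 0.80 for CycB3 (adjusted p of 0.00379, 0.00978, 0.00246 and 0.0333).

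fzr (Cdh1), the endocycle counterpart of fzy, had 2499, 2614 and 3433 normalized counts in the controls and 1908, 2064 and 2329 in the tumour-bearing cuticles. The groups did not overlap, yet the log2 fold change of -0.44 did not pass (95% interval -0.82 to -0.06, adjusted p = 0.0618), whereas with DESeq2 fzr was lower (adjusted p = 0.0336), and with libraries scaled by total counts the log2 fold change was 0.47. Per 100 raw fzy counts, fzr had 593, 604 and 428 counts in the controls and 229, 268 and 302 in the tumour-bearing samples. Of the ratios formed, that of stg to CycE showed the widest contrast, which follows from the rise of stg and the fall of CycE given above. Per 100 raw CycE counts, stg had 8.49, 20.4 and 29.8 counts in the controls and 246, 161 and 224 in the tumour-bearing samples.

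**Figure D4:**
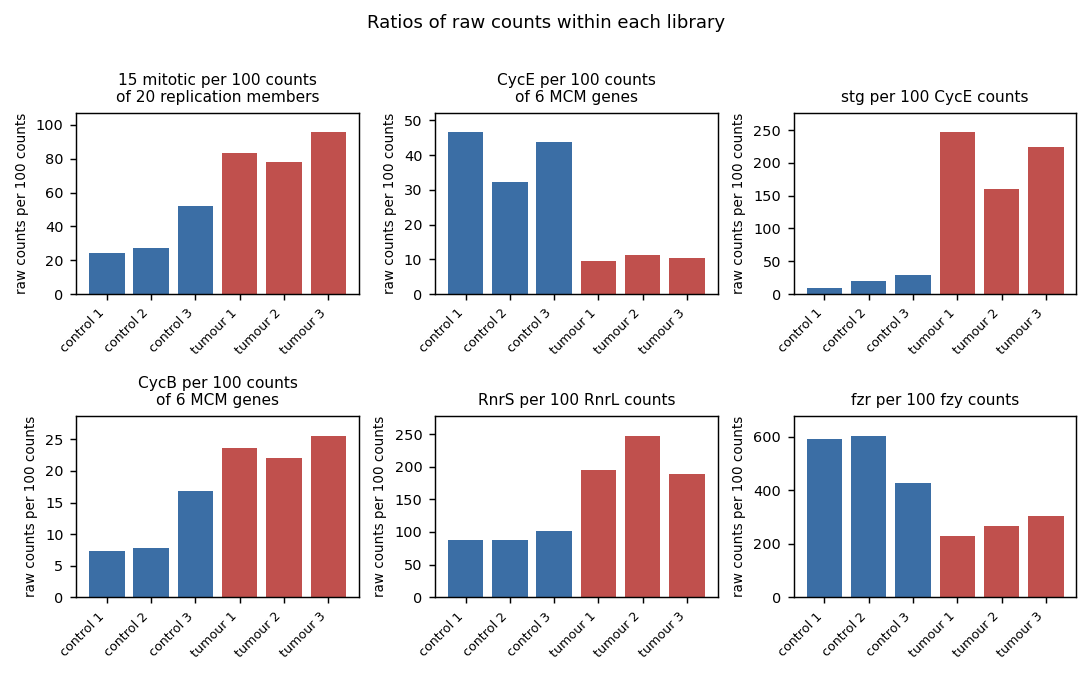
Bars are raw counts of a gene or gene group per 100 raw counts of another in the same library, for the 3 control (blue) and 3 tumour-bearing (red) samples. In all 6 ratios the groups do not overlap; control 3 is the control nearest to the tumour-bearing samples in 5 of them, the exception being CycE per 100 MCM counts, where control 2 is.

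Of the 9 genes of mitotic kinases, spindle and kinetochore, 8 rose, and in all 9 every tumour-bearing sample lay above every control, against 31.9% of all genes tested. Incenp, the scaffold of the chromosomal passenger complex that carries Aurora B (chromosome arm 2R), had the largest increase of the mitotic genes. It had 308, 521 and 735 normalized counts in the controls and 1959, 1622 and 2209 in the tumour-bearing samples (log2 fold change 1.89, standard error 0.33, adjusted p = 0.00649). Its kinase ial (Aurora B) had 146, 199 and 292 against 558, 381 and 471 (log2 fold change 1.14, standard error 0.30, adjusted p = 0.0239).

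Both aur and polo, further mitotic kinases, rose. aur (Aurora A, chromosome arm 3R, 11963124 to 11964826, plus strand) had 89.2, 96.2 and 179 normalized counts in the controls and 396, 337 and 408 in the tumour-bearing samples (log2 fold change 1.64, standard error 0.32, adjusted p = 0.00900). polo (chromosome arm 3L, 20309654 to 20313466, plus strand), which acts from entry to cytokinesis, had 541, 845 and 1476 against 2889, 2470 and 3109 (log2 fold change 1.56, standard error 0.37, adjusted p = 0.0170). polo reached the highest level per length of the mitotic genes, 947 normalized counts per kilobase of exon in the tumour-bearing samples.

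Spindle motors of opposite polarity rose together. Klp61F, the kinesin-5 that pushes spindle poles apart, had 423, 622 and 909 normalized counts in the controls and 1905, 1764 and 2011 in the tumour-bearing samples (log2 fold change 1.54, standard error 0.28, adjusted p = 0.00737). ncd, the kinesin-14 that focuses poles, had 667, 813 and 981 against 2282, 2180 and 2189 (log2 fold change 1.43, standard error 0.15, adjusted p = 0.00149). After cid it was the mitotic gene least raised in control 3. Of their exon bases, 11.0% of Klp61F and 11.7% of ncd are shared with a gene on the other strand.

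Genes of the spindle midzone and the centromere completed the group. pav, the kinesin of centralspindlin needed for cytokinesis, had 434, 492 and 858 normalized counts in the controls and 1259, 1013 and 1228 in the tumour-bearing samples (log2 fold change 0.97, standard error 0.28, adjusted p = 0.0329). feo, which bundles midzone microtubules, had 324, 351 and 661 against 838, 683 and 986, and did not pass with all samples (log2 fold change 0.91, adjusted p = 0.0590). cid (CENP-A), the histone of the centromere and the least abundant of the 42 genes, had 19.99, 16.0 and 20.5 normalized counts in the controls and 53.5, 42.3 and 40.3 in the tumour-bearing samples (log2 fold change 1.26, standard error 0.31, adjusted p = 0.0201). Here control 3 was only just above control 1.

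The number of mitotic genes that passed changed with the sample left out, while each of the 15 kept a positive log2 fold change in all 6 fits that left out 1 sample. Without control 3 all 15 passed, and without control 1, control 2, tumour 1, tumour 2 or tumour 3, 6, 4, 4, 6 and 5 passed, beside 10 with all samples. Of all genes tested, 25.1% were higher without control 3. In the other fits, in the same order, 17%, 21.4%, 17.8%, 16.3% and 18.5% were higher, beside 23.8% with all samples. Set against control 3 alone, the mean of the tumour-bearing samples was higher in 12 of the 15 genes, with a median log2 ratio of 0.69, and against the mean of control 1 and control 2 the median was 1.45. The exceptions were cdc2 (-0.01), fzy (-0.02) and CycB3 (-0.20). Of the called mitotic genes, aur, Incenp, Klp61F and ncd passed in all 6 fits that left out 1 sample, as did CycE, mus209, dup, RnrS, Orc4 and Rbf. CycB and pav passed in only the fit without control 3 (elsewhere adjusted p up to 0.0790 and 0.0942). stg, ial and cid missed the threshold in 4 of the 6 fits and polo in 3, with adjusted p up to 0.0961.

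Further genes of the same processes were read from lists. In a list of 33 other replication genes, 5 rose, 4 fell and 24 did not pass, with a median log2 fold change of 0.07, where 23.8% of all genes tested were higher and 23% lower. With total counts 22 of the 33 were higher and 1 lower, beside 61.4% and 6.9% of all genes tested. Without control 3 there were 4 and 7, beside 25.1% and 24.7%. Gnf1, the large subunit of the clamp loader, and RpA-70, which coats single-stranded DNA, rose most (0.82 and 0.79), and Psf1 of the GINS complex and Mcm10 fell most (-1.74 and -0.94). Of the exon bases of Mcm10, 13.0% are shared with Ret on the other strand. In a list of 53 other mitotic genes, 23 rose, 5 fell and 25 did not pass, with a median of 0.56, against the same 23.8% and 23% (43 higher and 1 lower with total counts). Spc105R, a kinetochore scaffold, and tum, the partner of pav in centralspindlin, rose most (1.91 and 1.77). cal1, which loads CENP-A, and the centrosomal gene tacc fell most (-2.46 and -0.76), with 11.3% of the exon bases of cal1 shared with cher on the other strand. In the controls cal1 and tacc were the most abundant genes of this second list. Its summed CPM were 2159, 1833 and 2502 in the controls and 1741, 1862 and 1720 in the tumour-bearing samples, which overlapped. Without control 3 the second list had 30 higher and 5 lower, beside 25.1% and 24.7% of all genes tested.

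Among 18 regulators of endocycles, protein turnover and checkpoints, 9 rose, 3 fell and 6 did not pass, against 23.8% and 23% of all genes tested. With total counts 13 of the 18 were higher, beside 61.4% of all genes tested, and none of the 3 was still lower. dm (Myc), a driver of growth and endoreplication, had 7994, 6184 and 5638 normalized counts in the controls and 25310, 40765 and 31376 in the tumour-bearing samples, which lay far apart (log2 fold change 2.298, adjusted p = 0.00141). trbl, which promotes the destruction of String protein, rose by 1.81. grp (Chk1), the checkpoint kinase that restrains Cdc25, fell (-1.45), and so did slmb (-1.16), an F-box protein of a ubiquitin ligase. Of 5 tested genes of the dREAM and Myb complex, which represses or activates E2F and mitotic genes, Myb rose (log2 fold change 1.19), mip130 fell (-0.54) and 3 did not pass, whereas with total counts 4 were higher. Of the exon bases of Myb, 99.2% are shared with CG46440 on the same strand, and of those of dm 40.9% with CG12535 on the other strand.

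Markers of the cells that a cuticle can hold moved too. For comparison, 23.8% of all genes tested were higher and 23% lower, and with total counts 61.4% and 6.9%. The muscle and epidermal genes that define the labelled tissue were present in every sample, but 9 of 14 muscle genes and 9 of 12 epidermal genes fell and the others did not pass, with medians of -2.73 and -2.23 (with total counts 9 muscle and 5 epidermal genes were lower, and 1 and 3 higher). Summed CPM were 46491 to 179370 against 15383 to 21439 for muscle, and 127290 to 238750 against 1532 to 1992 for epidermis. Most of the epidermal sum in the controls was that of the larval cuticle genes Lcp1 to Lcp4, with log2 fold changes from -6.92 to -11.9. The 3 epidermal genes that did not pass, vvl, knk and grh, had -0.06, -0.18 and -0.39. Of the exon bases of knk, 64.0% are shared with an antisense RNA. In control 3 the muscle and epidermal sums were the lowest of the controls, and its muscle genes were lower than in control 1 and control 2 by a median of -1.53 on the log2 scale.

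Haemocytes, the dividing blood cells of the larva, had 13 tested markers, of which 12 rose and 1 fell, with a median log2 fold change of 2.52 (3.48 with total counts). Their summed CPM were 871 to 1818 in the controls and 3663 to 8272 in the tumour-bearing samples. Ppn and Sr-CI rose most (3.67 and 3.16), and proPO-A1 was the gene that fell (-2.52). Control 3, in which the mitotic genes were high, had the lowest haemocyte sum of the controls, and its markers lay below those of the other controls by a median of -0.42. In tumour 1, tumour 2 and tumour 3 the haemocyte sums were 8272, 5042.5 and 3663 CPM, and the summed mitotic genes were 256, 209 and 253 CPM. A link between the haemocyte and mitotic sums was not tested.

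Imaginal disc and histoblast markers followed another course. The counts in this paragraph stand beside 23.8% of all genes tested that were higher and 23% that were lower. Of 17 tested, 1 rose (sd, 0.45), 2 fell (hth, -0.92, and eya, -2.94) and 14 did not pass, with a median of -0.33 (0.64 with total counts and 0.17 without control 3), and summed CPM were 442 to 647 in the controls and 377 to 483 in the tumour-bearing samples. In control 3 they were higher than in the other controls by a median of 1.03 on the log2 scale, close to the 0.95 of the mitotic genes there. Of 8 tested neuroblast and brain markers, 3 rose (insc, Syt1 and elav) and 5 did not pass. Summed CPM of the list were 31.7 to 39.0 in the controls and 66.1 to 84.0 in the tumour-bearing samples, which did not overlap. Syt1 and elav had log2 fold changes of 0.98 and 0.83 (adjusted p of 0.00567 and 0.0378). Of the exon bases of elav, 27.9% are shared with the RNA gene enrr on the same strand. insc, a neuroblast polarity gene, rose most (1.66, adjusted p = 0.00256), dpn had at most 86.9 normalized counts in any sample and did not pass, and wor and ase had at most 21.6 and 8.63, too few to be tested. Of 6 tested germline markers, aub rose (1.57), bam fell (-3.11) and 4 did not pass, while vas and zpg had at most 11.6 and 4.61. In the controls bam had 12467 to 31954 normalized counts, and 11.5% of its exon bases are shared with CG11854 on the other strand. Of 5 markers of adult muscle precursors and trachea, zfh1 and ct rose (2.36 and 0.56), btl fell (-0.79) and 2 did not pass. The part of any of these cells in the cell cycle results was not tested.

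**Figure D5:**
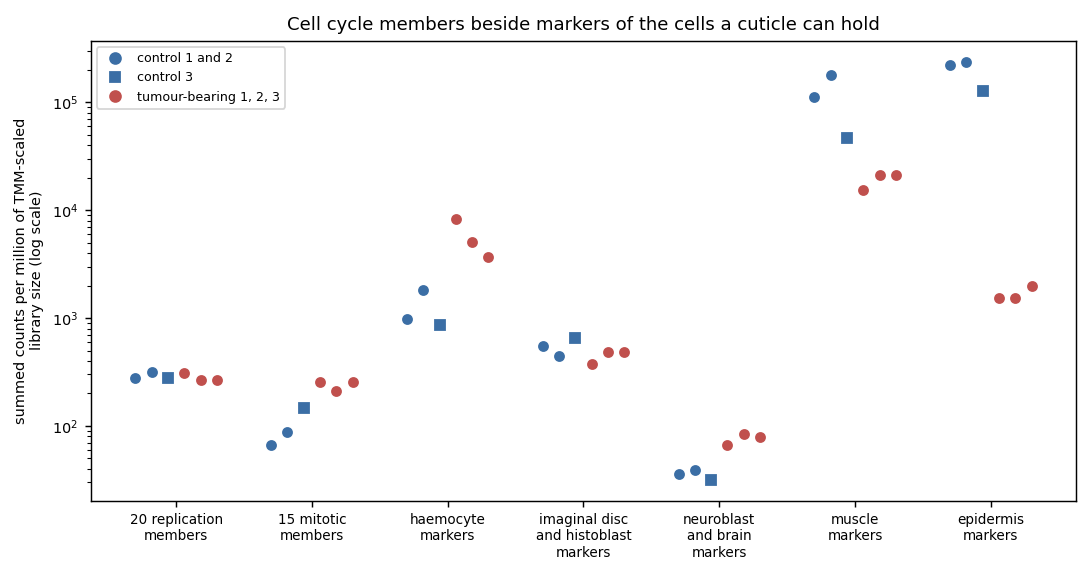
Points are CPM summed over a gene group in each sample, on a log scale, for controls (blue, control 3 as a square) and tumour-bearing samples (red). The 20 replication genes lie at 265 to 318 in every sample, the 15 mitotic genes at 66.5 to 146 in the controls and 209 to 256 in the tumour-bearing cuticles, and the marker groups show the larger shifts of haemocyte, muscle and epidermal genes between the groups. Most of the epidermal sum in the controls is that of Lcp1 to Lcp4.

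The choice of scaling decided the sign of several replication genes and left the order of the groups as it was. With libraries scaled by total counts, 89.9% of all calls were higher, against 50.8% with TMM. Of all genes tested, 61.4% were then higher and 6.9% lower, and of the 42 genes 37 were called higher and only CycE lower. The replication genes then had a median of 0.91 and the mitotic genes of 2.15, beside 0.94 for all genes. Relative to the median of all genes, the replication genes stood at -0.03 and the mitotic genes at 1.25 with TMM, and at -0.03 and 1.21 with total counts. With upper-quartile factors 60.1% of all calls were higher, and 28.4% of all genes tested were higher and 18.9% lower. Of the 42 genes, 21 were then called higher and 3 lower, and the medians of the replication and mitotic genes were 0.10 and 1.38.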

How the data were processed

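RNA of 6 cuticle samples was sequenced from unstranded libraries. In the submitters' processing notes, TopHat with Bowtie, counting by HTSeq, DESeq2, bcl2fastq and FastQC are named beside build BDGP6, and versions are not given in the sources used here. The authors deposited 1 table of raw read counts per gene, beside normalized values and columns of their own comparison (fold changes and p-values), which were not used. All per-sample columns could be mapped to a sample by name. Genes were filtered with filterByExpr, leaving 10074, and TMM-scaled counts were fitted with the robust quasi-likelihood method of edgeR 4.0.16 (R 4.3.3), with p-values adjusted after Benjamini and Hochberg and called under 0.05. The procedure was tested on simulated counts in which both groups shared the same mean profile apart from a small set of changed genes. Those counts held no difference in composition like that of these libraries, so they do not test the scaling. Standard errors were derived from each coefficient and its F statistic. Exon lengths and overlaps came from the BDGP6 annotation, in which 11181 identifiers were found and a further 385 were placed through their Entrez number and position.

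The members and lists were chosen with earlier results of these data known. All 42 members are named. From each further list, at most the 2 largest increases and 2 largest decreases past the test are named, with some genes added after their values were seen. These are the scarce markers dpn, wor, ase, vas and zpg, the neural marker elav, and the epidermal genes Lcp1, Lcp2, vvl, knk and grh. Other settings tried were scaling by RLE, upper quartile or total counts, the 20 most abundant genes left out, other filters on low counts, DESeq2 1.42.0, the replicate number as a block, and each sample left out in turn. The labels and the paper differ on the number of cuticles per sample and on the extraction reagent. Sequences are not shown here.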

Additional observations from a re-analysis of the deposited data

How the results depend on the processing

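With total counts and no composition factors, 37 of the 42 genes were called higher and 1 lower, against 61.4% and 6.9% of all genes tested. The medians were then 0.91 for the replication and 2.15 for the mitotic genes. In the same setting the log2 fold changes of cdc2c (0.76), Rbf2 (0.51), Orc1 (0.58), Orc2 (0.72), Orc6 (0.85), Mcm3 (0.76), Mcm7 (0.66), mus209 (0.056), RnrL (0.72) and fzr (0.47) changed sign, and so did Orc6 (0.033) with upper-quartile factors. These follow the shift of the median of all genes. Leaving out 1 sample in turn gave 3055 to 5138 called genes, 7 to 20 members called higher, 3 called lower in each fit, and medians of -0.12 to 0.03 for the replication and 1.03 to 1.43 for the mitotic genes. Of all genes tested, 16.3% to 25.1% were higher and 13.4% to 24.7% lower in these fits. The fewest genes, 3055, were called without tumour 2, and the fewest members higher, 7, without tumour 1, with 9 each without control 1 and without tumour 3. Signs changed without control 1 for dap (-0.059) and Mcm5 (-0.09), without tumour 1 for Mcm5 (-0.10) and without control 3 for Rbf2 (0.32), so that over these fits dap ranged from -0.059 to 0.31, Mcm5 from -0.10 to 0.21 and Rbf2 from -0.66 to 0.32. The cause was not tested.

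DESeq2 called 5481 genes, with 16 members higher and 4 lower, beside 26.6% and 27.8% of all genes tested. Dp also missed the threshold with RLE factors and without a filter on low counts. Replicate numbers are shared between the groups, but samples with the same number did not deviate together (correlations of -0.07, 0.03 and 0.04), and control 1 correlated best with tumour 2 (0.12). With the replicate number as a block, 3572 genes, 12 members higher and 3 lower were called, and the medians were -0.02 and 1.25. Of all genes tested, 18.9% were then higher and 16.5% lower. In that fit stg, ial, cid and Dp missed the threshold (adjusted p of 0.0559, 0.0518, 0.0646 and 0.0984), and feo and fzr passed it (0.0305 and 0.0489).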
